A study of Mus musculus with 9 samples.

Results

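Bone morphogenetic protein (BMP) ligands, an antagonist, receptors and targets of their signal were followed in the abdominal aorta of mice that lack B cells. They are 10 genes taken by name, Bmp2, Bmp4, Bmp6, Bmp1, Grem1, Bmpr1a, Bmpr2, Id1, Id3 and Smad6, out of 24128 genes that the array names. The rule picks them by name, without a threshold on a measured value, but the list was drawn up with earlier results of these data known. Their 13 probes lie among 55681, and 12 probes, with all 10 genes among them, passed the filter on dim probes. All arrays came from uMT mice on the C57BL/6 strain, which carry a targeted disruption of the IgM heavy chain locus that stops B cell development early, so every group shares this deficiency. The CaCl2+IgG group had 0.5 M CaCl2 laid on the outside of the aorta, a way to induce aneurysm, and mouse polyclonal IgG injected into the peritoneum. The CaCl2 group had the same application with no injected IgG mentioned, and the sham group had saline around the aorta. Each group has 3 arrays, and the CaCl2-treated aortas were taken 7 days after the application. The sources used here give neither the sampling day of sham mice, nor age, sex, dose of IgG, nor whether an array holds 1 animal or a pool. Since separate animals are not stated, p-values here describe only how far these arrays scatter, and that scatter may be technical.

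BMPs are secreted ligands of the TGF-beta family. They bind a complex of type I and type II receptors, which phosphorylates SMAD1, SMAD5 and SMAD9, and these enter the nucleus with SMAD4 and raise target genes such as Id1, Id3 and the inhibitory Smad6. Secreted antagonists such as gremlin hold the ligands away from their receptors. In the vessel wall the pathway is known for its part in endothelial integrity, in the smooth muscle phenotype and in calcification of the media.

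Promoter windows of 4 genes are shown, the targets Smad6 and Id3, the ligand Bmp6, which had the largest decrease, and the antagonist Grem1, which had the largest increase. RefSeq windows, from 250 bases before to 50 bases after the start of a gene, were at hand for 7 of the 10 genes, Bmp4, Bmp6, Bmpr1a, Bmpr2, Grem1, Id3 and Smad6. The sequences are in lower case, 5′ to 3′ on the strand of the gene, and capitals mark every match to 3 strings searched on both strands. These were GGCGCC, a GC-rich element of BMP-responsive SMADs, GTCTAGAC, the palindrome of the SMAD-binding element, and CAGCGC. No match overlapped another.
Smad6, chr9:64022010-64022309 of GRCm38.p6, minus strand: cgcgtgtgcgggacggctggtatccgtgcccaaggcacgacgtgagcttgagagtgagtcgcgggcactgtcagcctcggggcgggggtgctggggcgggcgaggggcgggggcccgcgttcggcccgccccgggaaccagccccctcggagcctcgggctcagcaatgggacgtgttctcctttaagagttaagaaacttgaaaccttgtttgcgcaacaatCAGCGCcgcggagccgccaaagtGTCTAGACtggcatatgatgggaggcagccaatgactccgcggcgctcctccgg
Id3, chr4:136143572-136143871 of GRCm38.p6, plus strand: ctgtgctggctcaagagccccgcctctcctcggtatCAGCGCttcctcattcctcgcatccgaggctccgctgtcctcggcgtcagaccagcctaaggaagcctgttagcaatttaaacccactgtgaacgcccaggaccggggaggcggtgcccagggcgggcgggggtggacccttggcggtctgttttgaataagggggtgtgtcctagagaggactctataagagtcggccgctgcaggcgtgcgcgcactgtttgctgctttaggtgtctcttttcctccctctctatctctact
Bmp6, chr13:38345466-38345765 of GRCm38.p6, plus strand: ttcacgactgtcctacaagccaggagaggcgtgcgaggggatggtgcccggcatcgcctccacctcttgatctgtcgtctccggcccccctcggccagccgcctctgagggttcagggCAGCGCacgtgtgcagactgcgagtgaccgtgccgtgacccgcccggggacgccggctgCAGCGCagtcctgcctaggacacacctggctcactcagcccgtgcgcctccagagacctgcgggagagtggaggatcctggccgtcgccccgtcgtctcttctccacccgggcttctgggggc
Grem1, chr2:113758599-113758898 of GRCm38.p6, minus strand: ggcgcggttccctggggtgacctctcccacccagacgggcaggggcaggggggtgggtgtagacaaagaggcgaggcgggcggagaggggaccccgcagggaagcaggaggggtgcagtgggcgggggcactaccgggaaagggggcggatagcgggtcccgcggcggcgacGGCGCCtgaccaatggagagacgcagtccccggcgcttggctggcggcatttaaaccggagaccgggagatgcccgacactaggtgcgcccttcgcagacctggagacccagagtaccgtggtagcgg

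GTCTAGAC stood in 0.213% of 32851 windows of all genes and in 1 of the 7 windows here, that of Smad6, where it begins 4 bases before the start of the gene and runs across it. CAGCGC stood in 17.3% of all windows and in those of Smad6, of Id3 and, at 2 places, of Bmp6. GGCGCC stood in 11.9% of all windows and in those of Grem1, Bmpr1a and Bmpr2, 78, 198 and 105 bases before the start. Smad6 and Bmp6 were lower in CaCl2-treated aortas and Id3, with the same string, did not pass the test, as the values below give. Likewise GGCGCC stood before Grem1, which was higher, and before both receptors, which were lower. A match is only a match of letters.

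Signals are given as scaled levels, the log2 of the processed signal of a probe minus the log2 of the 75th percentile of its array. A gene was represented by its brightest probe, and a scaled level of 1 probe says nothing of another. For all 10 genes the representative probe passed the scanner's test of being well above background on 9 of 9 arrays, and 0 spots were saturated. The probe locations below are those in the scanner files, on mm9. No annotation of that build was used here, so exons and untranslated regions are not stated. Differences were tested with limma over 16645 genes with Benjamini-Hochberg adjustment, and a gene was called at an adjusted p under 0.05.

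Between 54.9% and 59.9% of the probes were well above background on an array. The 75th percentile of the signal was 270 to 455 in CaCl2+IgG arrays, 381 to 496 in CaCl2 arrays and 267 to 302 in sham arrays. The median change of all genes between CaCl2 and sham was -0.08 on the main scale, against 0.39 when arrays were scaled to their median, and between CaCl2+IgG and sham it was -0.10 against 0.14. A decrease here is therefore a decrease relative to the 75th percentile. CaCl2+IgG replicate 3 stood apart, at 2.38 and -75.0 on the first 2 principal components, which hold 69.0% and 11.8% of the variance. The other arrays of that group lay at 52.5 to 53.1 and 8.50 to 16.0. Sham replicate 3 was alone on its slide.

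In CaCl2 against sham aortas, 7 of the 10 genes were called, against 36.3% of all 16645 genes. Grem1 and, on its brightest probe, Bmp1 rose, 2 of 10 against 17.3% of all genes that were called higher. Bmp6, Bmpr1a, Bmpr2, Smad6 and Id1 fell, 5 of 10 against 19.0% of all genes called lower. Bmp2, Bmp4 and Id3 did not pass the test. The CaCl2 and sham arrays did not overlap for 8 of 10 genes, against 56.5% of all genes. The median difference of the 10 genes was -0.55, against -0.08 for all genes. Under median scaling the split was 2 higher and 0 lower, and the 5 genes that fell kept a negative difference without passing the test. Among all genes too, more were called higher than lower under that scaling, as counted below.

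**Figure D1:**
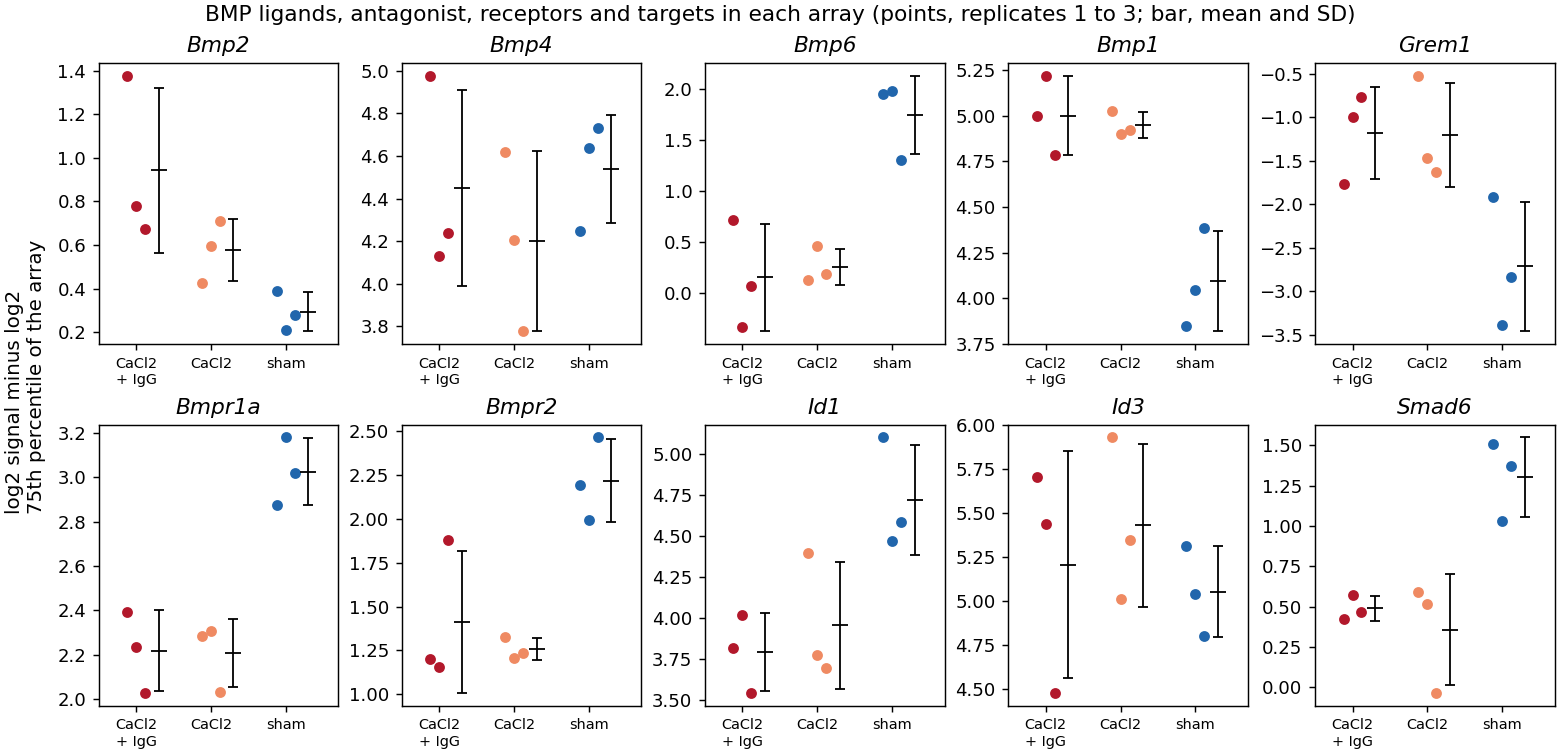
Scaled levels (log2 signal minus log2 of the 75th percentile, y axis, a scale of its own in each panel) of the 10 genes in the 9 arrays, with the mean and SD of 3 arrays beside each group. The sham points lie above those of both CaCl2-treated groups for Bmp6, Bmpr1a, Bmpr2, Id1 and Smad6 and below them for Bmp1, Bmp2 and Grem1.

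Bmp6, a ligand that endothelium makes and that is best known for its control of hepcidin in the liver, had the largest decrease of the 10 genes. Its probe at chr13:38591479-38591538 gave scaled levels of 0.72, -0.33 and 0.07 in CaCl2+IgG aortas, 0.13, 0.46 and 0.19 in CaCl2 aortas, and 1.95, 1.99 and 1.31 in sham aortas. Every CaCl2-treated array lay below every sham array. The difference of CaCl2 minus sham was -1.49 ± 0.29 (SE, 3 arrays a group, 2.81-fold lower, adjusted p = 0.00601). Before scaling, the signals of Bmp6 were 433 to 634 in CaCl2 arrays and 659 to 1195 in sham arrays and did not overlap. Those of the CaCl2+IgG arrays, 283 to 739, did overlap the sham range. Under median scaling the difference was -1.02 with an adjusted p of 0.0599.

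Bmp2, a ligand that drives bone formation and that endothelial cells release under inflammatory stimuli, had scaled levels of 1.38, 0.78 and 0.67 in CaCl2+IgG aortas, 0.43, 0.60 and 0.71 in CaCl2 aortas, and 0.39, 0.21 and 0.28 in sham aortas (probe at chr2:133388260-133388319). The sham arrays were the 3 lowest, and the single highest array was CaCl2+IgG replicate 1. The difference of CaCl2 minus sham, 0.28 ± 0.20, did not pass the test (adjusted p = 0.276), with a 95% interval of -0.16 to 0.73. Over 24 settings it lay between 0.08 and 0.76, highest under median scaling, and passed in 0. Before scaling, the signals of Bmp2 were 623 to 697 in CaCl2 arrays and 324 to 354 in sham arrays and did not overlap.

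Bmp4, which patterns the embryonic mesoderm and is made by endothelium under disturbed flow, overlapped in all groups. Its kept probe at chr14:47003391-47003450 gave 4.98, 4.13 and 4.24 in CaCl2+IgG aortas, 4.62, 4.21 and 3.78 in CaCl2 aortas, and 4.25, 4.64 and 4.73 in sham aortas. For CaCl2 minus sham it differed by -0.34 ± 0.29 (adjusted p = 0.381, 95% interval -0.997 to 0.32), and under median scaling the sign turned, to 0.13. The other probe, at chr14:47003198-47003257, cleared the background on 0 of 9 arrays and was not tested.

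Grem1 encodes gremlin, a secreted antagonist that binds BMP2, BMP4 and BMP7. Its probe at chr2:113589227-113589286 gave -1.77, -0.99 and -0.77 in CaCl2+IgG aortas, -0.52, -1.47 and -1.63 in CaCl2 aortas, and -1.92, -3.39 and -2.84 in sham aortas. The sham arrays were the 3 lowest, although CaCl2+IgG replicate 1 and sham replicate 1 lay close together. CaCl2 minus sham was 1.51 ± 0.45 (2.85-fold higher, adjusted p = 0.0311), the largest increase of the 10 genes and also the one with the widest spread. The signal was low, 123 to 345 before scaling in CaCl2 arrays and 28.7 to 71.7 in sham arrays. With normexp background correction the difference was 0.75 and did not pass (adjusted p = 0.0562). It also failed without sham replicate 2 (1.17, adjusted p = 0.095), sham replicate 3 (1.45, 0.0865), CaCl2 replicate 1 (1.17, 0.0981) or CaCl2 replicate 2 (1.64, 0.051).

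Both receptors were lower in CaCl2 aortas. Bmpr1a, a type I receptor that passes the signal to the SMADs, had 2.39, 2.23 and 2.03 in CaCl2+IgG aortas, 2.28, 2.31 and 2.03 in CaCl2 aortas, and 2.87, 3.18 and 3.02 in sham aortas (probe at chr14:35224339-35224398). All sham arrays lay above all others. In CaCl2 minus sham it differed by -0.82 ± 0.15 (1.76-fold lower, adjusted p = 0.00513). Bmpr2, the type II receptor whose loss of function causes heritable pulmonary arterial hypertension in people, had 1.20, 1.16 and 1.88 in CaCl2+IgG aortas, 1.33, 1.21 and 1.23 in CaCl2 aortas, and 2.19, 2.00 and 2.46 in sham aortas (probe at chr1:59927276-59927335). Its CaCl2 arrays lay close together and well below the sham arrays, and CaCl2+IgG replicate 3 lay near the lowest sham array. In CaCl2 minus sham Bmpr2 differed by -0.96 ± 0.21 (1.95-fold lower, adjusted p = 0.0106).

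The size of the receptor decreases rests on the scaling. Before scaling, the signals of Bmpr1a were 1556 to 2414 in CaCl2 arrays and 1986 to 2732 in sham arrays, and those of Bmpr2 were 895 to 1243 in CaCl2 arrays and 1203 to 1471 in sham arrays. Both pairs of ranges overlap. Under median scaling the differences were -0.35 for Bmpr1a (adjusted p = 0.404) and -0.49 for Bmpr2 (adjusted p = 0.12).

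Of the target genes, Smad6 and Id1 fell and Id3 did not pass the test. Smad6, an inhibitory SMAD that BMP signals induce and that blocks the receptors in turn, had 0.43, 0.57 and 0.47 in CaCl2+IgG aortas, 0.59, 0.51 and -0.03 in CaCl2 aortas, and 1.51, 1.03 and 1.37 in sham aortas (probe at chr9:63800980-63801039). Every sham array lay above every other. CaCl2 minus sham was -0.94 ± 0.20 (1.92-fold lower, adjusted p = 0.00849), -0.47 with an adjusted p of 0.23 under median scaling. Id1, an inhibitor of basic helix-loop-helix factors and a direct BMP target, had 3.82, 4.02 and 3.54 in CaCl2+IgG aortas, 4.40, 3.78 and 3.69 in CaCl2 aortas, and 5.10, 4.47 and 4.59 in sham aortas (probe at chr2:152563083-152563142). Both CaCl2-treated groups lay below the sham arrays without overlapping them, but CaCl2 replicate 1 lay just below the lowest sham array. CaCl2 minus sham was -0.77 ± 0.25 (1.70-fold lower, adjusted p = 0.0416).

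The call of Id1 is the least secure of the 7. Of 24 settings it passed in 13, and under median scaling the difference was -0.29 (adjusted p = 0.532). It failed without sham replicate 1 (-0.57, adjusted p = 0.124), sham replicate 2 (-0.89, 0.0531), sham replicate 3 (-0.83, 0.075), CaCl2 replicate 2 (-0.68, 0.11) or CaCl2 replicate 3 (-0.63, 0.127). Leaving out CaCl2+IgG replicate 1 or 2, which enter only through the shared spread, gave adjusted p of 0.0563 and 0.0506. Before scaling, the signals of Id1 were 4924 to 10462 in CaCl2 arrays and 6411 to 9309 in sham arrays, and those of Smad6 were 372 to 748 in CaCl2 arrays and 616 to 769 in sham arrays, so both overlap.

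Id3, a close relative of Id1 and likewise a BMP target, did not pass the test. Its probe, which spans 175 bases of the genome at chr4:135700075-135700249, gave 5.70, 5.44 and 4.48 in CaCl2+IgG aortas, 5.93, 5.01 and 5.34 in CaCl2 aortas, and 5.31, 5.04 and 4.80 in sham aortas. The groups overlapped, and both the highest and the lowest array were CaCl2-treated. Id3 in CaCl2 minus sham differed by 0.38 ± 0.35 (adjusted p = 0.421, 95% interval -0.42 to 1.17).

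Bmp1 is no ligand despite its name. It encodes a tolloid-family metalloprotease that cleaves the C-propeptides of procollagens and the antagonist chordin. Its brightest probe, at chr14:70874370-70874429, gave 4.999, 5.22 and 4.78 in CaCl2+IgG aortas, 5.03, 4.90 and 4.92 in CaCl2 aortas, and 3.84, 4.04 and 4.39 in sham aortas. All sham arrays lay below all others, and CaCl2 minus sham was 0.86 ± 0.18 (1.81-fold higher, adjusted p = 0.00751). When slide row was a block, the difference was 0.71 with an adjusted p of 0.0527.

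Of the 3 probes of Bmp1, 2 passed the test. The probe at chr14:70886415-70886474, A_55_P2006698, gave 2.07, 2.03 and 1.62 in CaCl2+IgG aortas, 1.82, 1.55 and 2.38 in CaCl2 aortas, and 0.65, 0.95 and 1.27 in sham aortas. It too separated the sham arrays, with a difference of 0.96 ± 0.25 (adjusted p = 0.0204 over all kept probes). The probe at chr14:70890355-70890414, A_55_P2006708, gave 0.84, 0.95 and 0.62 in CaCl2+IgG aortas, 0.71, 0.63 and 0.72 in CaCl2 aortas, and 0.48, 0.60 and 0.93 in sham aortas. There the groups overlapped, and the difference was 0.02 ± 0.16 (adjusted p = 0.944, 95% interval -0.34 to 0.38). A_55_P2006708 and the brightest probe are assigned to the same transcript record, and A_55_P2006698 to another. The gene is known to give several splice forms, and the difference between probes was not tested.

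**Figure D2:**
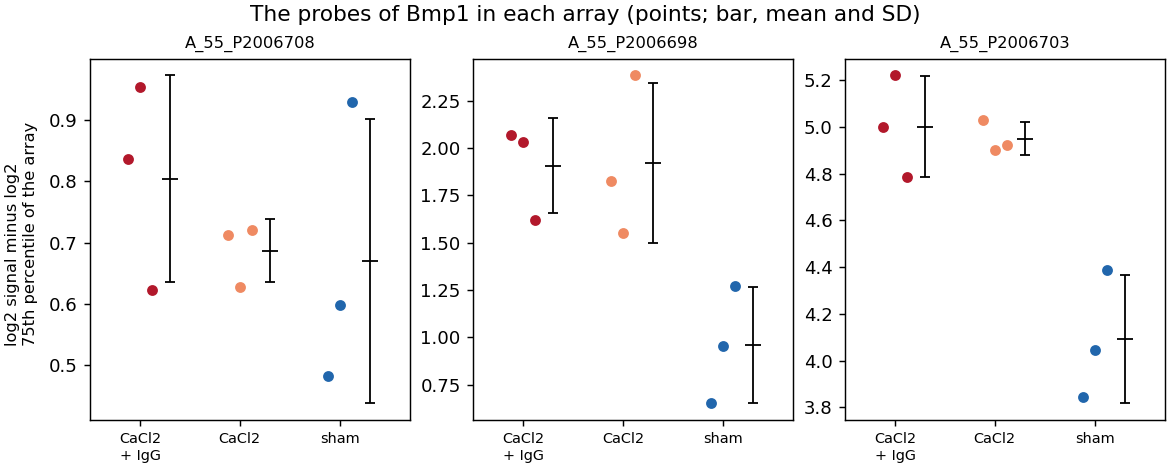
Scaled levels (y axis, a scale of its own in each panel) of the 3 Bmp1 probes in the 9 arrays, named by their array identifiers, with the mean and SD of 3 arrays beside each group. A_55_P2006698 and A_55_P2006703 lie lower in every sham array than in any other, while the groups of A_55_P2006708 overlap.

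Row 1 of the slides held CaCl2 replicates 1 to 3, CaCl2+IgG replicate 1 and sham replicate 3, and row 2 held the rest. Row and group are thus partly confounded. Row 1 holds 1 sham array, replicate 3, which is also the only array on its slide, so within that row slide and group cannot be told apart and the spread of sham is not measured. The differences of CaCl2 minus sham there are therefore given as values alone. They were -1.05 for Bmp6, -1.21 for Bmpr2, -0.81 for Bmpr1a, -1.01 for Smad6, -0.63 for Id1, 1.63 for Grem1 and 0.56 for Bmp1. The CaCl2 and sham arrays of these genes did not overlap, so no sign could turn within the row.

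CaCl2+IgG against CaCl2 asked whether injected IgG alters what CaCl2 does in mice without B cells. None of the 10 genes was called by limma, 0 of 10 against 0% of all 16645 genes, and 0 of the 10 passed an unadjusted p under 0.05, against 248 of all genes. The arrays of the groups overlapped for all 10 genes (0 of 10 without overlap, against 5.03% of all genes). The differences lay between -0.22 for Id3 and 0.36 for Bmp2, and Bmp2 had the smallest unadjusted p of the 10 (0.0959, 95% interval -0.08 to 0.81). For Bmpr1a the interval was -0.34 to 0.36, for Bmp1 it was -0.35 to 0.45, and for Grem1 it was the widest, -0.996 to 1.05. Missing the threshold does not show that the groups were alike.

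CaCl2+IgG against sham uses the same sham arrays as CaCl2 against sham, so both sets of values rest on them. It called 8 of the 10 genes, 3 higher and 5 lower, against 28.7% of all genes, 14.6% higher and 14.1% lower. The arrays did not overlap for 8 of 10 genes, against 44.2% of all genes. The median difference was -0.45, against -0.10 for all genes. The genes that rose were Grem1, by 1.54 ± 0.45 (adjusted p = 0.0341), Bmp1, by 0.91 ± 0.18 (0.0067), and Bmp2, by 0.65 ± 0.19 (0.0379). Those lower in CaCl2+IgG were Bmp6 with -1.59 ± 0.29 (adjusted p = 0.00508), Id1 with -0.93 ± 0.25 (0.0244), Smad6 with -0.81 ± 0.20 (0.0177), Bmpr2 with -0.81 ± 0.21 (0.0243) and Bmpr1a with -0.81 ± 0.15 (0.00614).

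**Figure D3:**
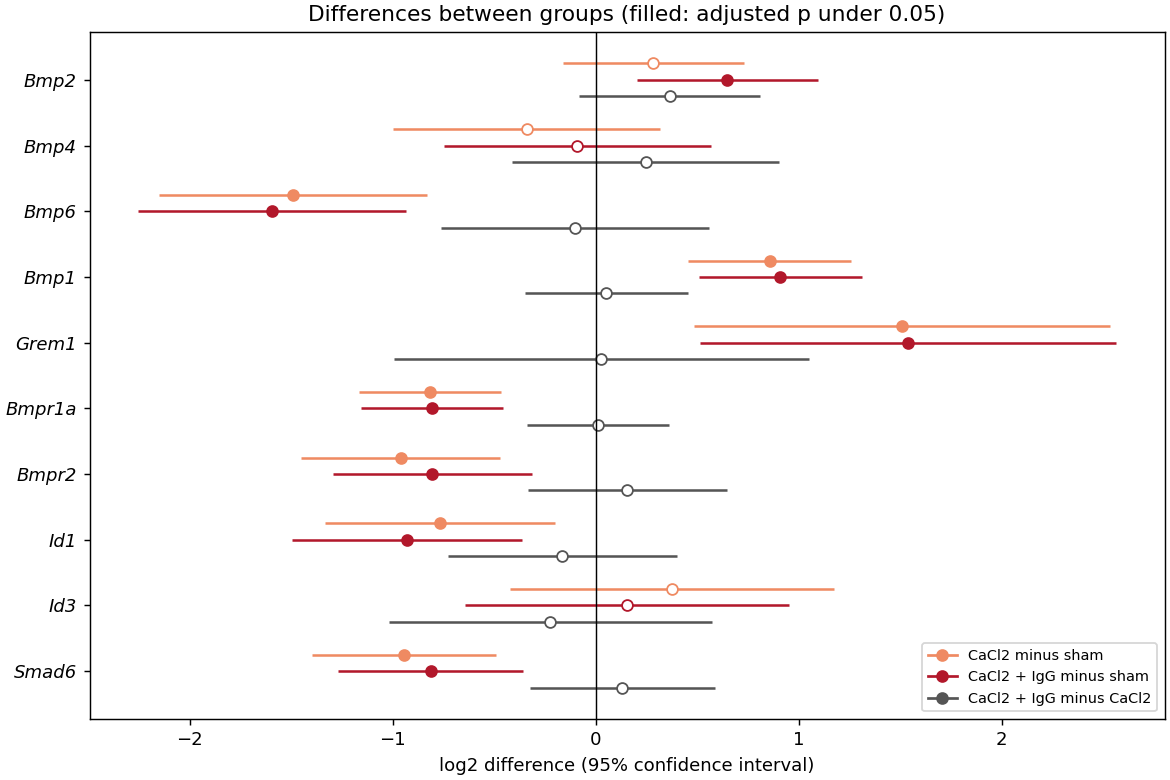
Log2 differences (x axis) of the 10 genes in the 3 comparisons, with 95% confidence intervals from limma, filled points passing an adjusted p of 0.05. The differences from sham lie side by side for CaCl2 and CaCl2+IgG, and every interval of CaCl2+IgG minus CaCl2 crosses 0.

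Bmp2 passed only against sham with IgG, and its difference between CaCl2+IgG and CaCl2 did not pass the test, as given above. Of 24 settings the Bmp2 call held in 12. Without CaCl2+IgG replicate 1, the highest array, the difference from sham was 0.43 (adjusted p = 0.0803), and it also failed without CaCl2+IgG replicate 2, any 1 sham array, or CaCl2 replicate 1 or 2. Bmp1 and Bmp6 were called in all 24 settings of CaCl2+IgG against sham. Without CaCl2+IgG replicate 3, the array that stood apart, 7 genes were called, and Grem1 lost its call (1.33, adjusted p = 0.0645). Without sham replicate 3, alone on its slide, 3 of the 10 genes were called. Without sham replicate 1 or CaCl2+IgG replicate 1 the number was 4, and without CaCl2+IgG replicate 2 it was 5. The calls lost there were those of Bmp2, Bmpr2, Grem1, Id1 or Smad6. The number of all genes called moved as well, from 4783 to 3015 without CaCl2+IgG replicate 2 and to 6735 without CaCl2+IgG replicate 3. Row 1 holds 1 array of each of these groups, on different slides, and gives no test of them. Within row 2, with 2 arrays a group on the same slide, Bmp6 was the 1 gene called (-2.10, adjusted p = 0.0228).

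**Figure D4:**
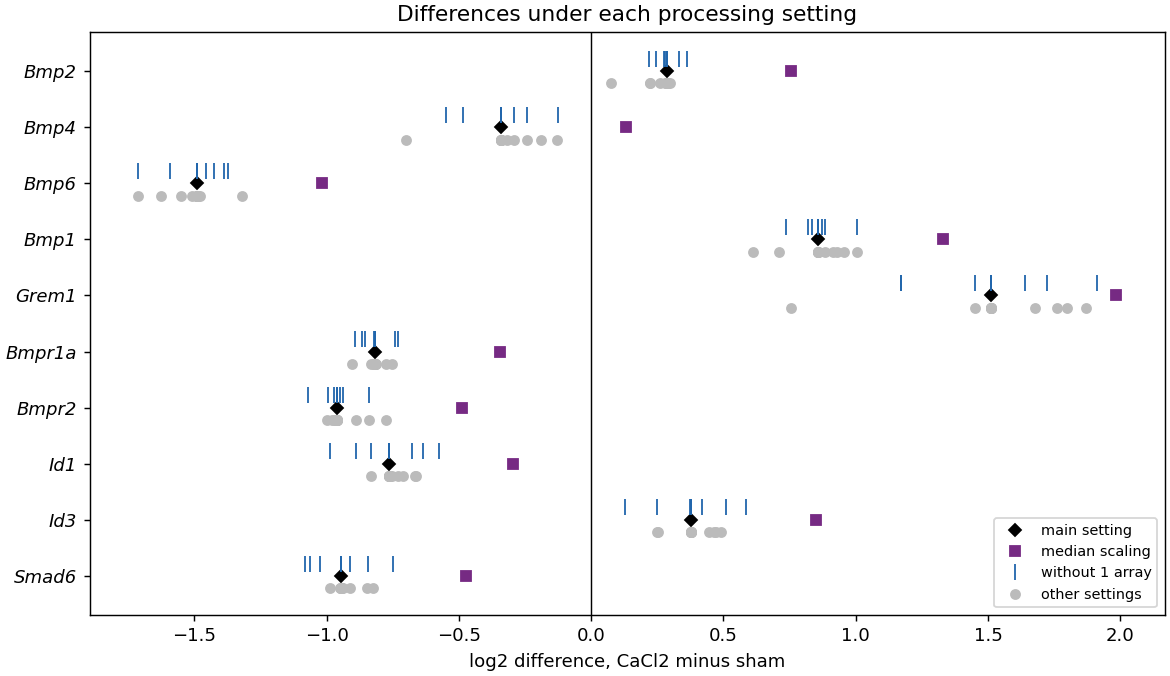
Log2 differences of CaCl2 minus sham (x axis) of the 10 genes under the processing settings tried, with the main setting as a diamond, median scaling as a square, arrays left out 1 at a time as ticks and the other settings as dots. Median scaling lies to the right of the other settings for every gene, and only Bmp4 crosses 0 there.

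Markers of other cell types moved with the same contrast. The summed level of 7 smooth muscle markers, relative to the 75th percentile, was 881 to 1203 in CaCl2+IgG arrays, 802 to 1288 in CaCl2 arrays and 2580 to 2970 in sham arrays, and 7 of 7 fell in CaCl2 against sham, under median scaling too. The summed level of 8 endothelial markers was 68.6 to 91.6 in CaCl2+IgG arrays, 68.6 to 79.9 in CaCl2 arrays and 85.1 to 110 in sham arrays, with 2 of 8 higher and 2 of 8 lower, or 2 and 0 under median scaling. Vwf, the brightest of the 8, weighs most in that sum, with mean scaled levels of 5.37 in CaCl2 and 6.16 in sham aortas. In CaCl2 minus sham 4 of the 8 differences were negative and 4 positive, with a median of 0.02. The summed level of 7 fibroblast markers was 1490 to 1733 in CaCl2+IgG arrays, 1344 to 1568 in CaCl2 arrays and 1006 to 1145 in sham arrays, with 4 of 7 higher. That of 7 monocyte and macrophage markers was 181 to 223 in CaCl2+IgG arrays, 200 to 222 in CaCl2 arrays and 26.5 to 74.5 in sham arrays, with 6 of 7 higher. None of these 4 lists had a marker below background on every array of a group, so the defining markers of aorta were present in all groups. The part of these shifts in the changes of the BMP genes was not tested. In such bulk tissue, fewer cells of a type and less RNA per cell cannot be told apart.

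The rest of the pathway was read from a list of 62 further genes, of which 51 passed the filter on dim probes. In CaCl2 against sham 19 of 51 were called, near the 36.3% of all genes, with 8 higher and 11 lower. The other 32 did not pass the test, and the median difference was -0.27, against -0.08 for all genes. The 8 include Bmp7 and Runx2, which cleared the background on 0 of 3 sham arrays, and Smad1, whose probes disagree. These genes also count as higher in CaCl2+IgG against sham. Under median scaling the split was 12 higher and 2 lower, and among all genes too more were called higher than lower there, as counted below. In CaCl2+IgG against CaCl2, 0 of 51 were called, and in CaCl2+IgG against sham 7 were higher and 10 lower, beside 28.7% of all genes called. The counts by role that follow can be read, on the main scale, against 17.3% of all genes higher and 19.0% lower in CaCl2 against sham. These shares do not hold for the counts under median scaling.

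Among 14 tested antagonists, 3 rose and 2 fell, against 5 higher and 0 lower under median scaling. Bmper, a secreted protein that binds BMPs and tunes their action in endothelium, had 4.58, 3.81 and 3.70 in CaCl2+IgG aortas, 4.32, 3.42 and 3.82 in CaCl2 aortas, and 0.73, 0.53 and 0.18 in sham aortas. The sham arrays lay far below all others, with a difference of 3.37 ± 0.30 for CaCl2 minus sham (adjusted p = 0.000421). Nbl1, an antagonist of the DAN family, rose by 0.61 ± 0.16 (adjusted p = 0.0183). Fstl3, a follistatin-like antagonist, was lower, with 2.60, 3.22 and 2.69 in CaCl2+IgG aortas, 3.24, 3.13 and 2.73 in CaCl2 aortas, and 3.98, 4.70 and 4.63 in sham aortas. Its difference was -1.40 ± 0.26 (adjusted p = 0.00463), and -0.93 under median scaling, where it did not pass (0.0587). Median scaling moved the differences of CaCl2 minus sham upward, so the positive differences of Grem1, Nbl1 and Bmper could not turn negative there.

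Of 7 tested ligands beside Bmp2, Bmp4 and Bmp6, Bmp7 was called and 6 were not. Bmp7, a ligand best known from kidney and bone, cleared the background on 3 of 3 CaCl2 arrays but on 0 of 3 sham arrays. It thus passed the filter on dim probes only through the CaCl2-treated groups, and its call is not read as a result. As bounds, its signal was at least 3.07-fold higher in CaCl2 and at least 2.68-fold higher in CaCl2+IgG than in sham. These bounds rest on the background correction. With normexp the log2 difference of Bmp7 was 0.41 for CaCl2 minus sham (adjusted p = 0.16) and 0.36 for CaCl2+IgG minus sham (0.245), and neither passed.

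Of 8 further receptors and co-receptors, 2 rose and 2 fell, against 2 and 0 under median scaling. Eng, the co-receptor endoglin of endothelial cells, rose by 0.75 ± 0.21 (adjusted p = 0.0233), and Acvr1, a type I receptor, rose by 0.39 ± 0.13 (0.0427). Acvr2a, a type II receptor, was lower with -0.41 ± 0.12 (adjusted p = 0.0336), but its difference was 0.07 under median scaling. Rgma, a co-receptor, was lower with -0.52 ± 0.18 (adjusted p = 0.0486), and -0.05 under median scaling.

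Of 10 genes of signalling and feedback, 1 was called higher and 3 lower, against 1 and 1 under median scaling. Smad9, a receptor-activated SMAD that BMP signals also induce, had -3.30, -3.24 and -3.33 in CaCl2+IgG aortas, -3.33, -2.85 and -3.95 in CaCl2 aortas, and -1.44, -2.08 and -1.97 in sham aortas. Every sham array was higher than every other, and the difference was -1.55 ± 0.28 (adjusted p = 0.00445), or -1.08 under median scaling, where it still passed (0.0328). Smad1, a receptor-activated SMAD, was called higher on its brightest probe, with 1.56 ± 0.42 (adjusted p = 0.0222), but its probes disagree. Tested probe by probe, A_52_P65108 differed by 1.56 (adjusted p = 0.0221), A_55_P2029285 by -0.91 (0.00306) and A_55_P2029289 by -0.14 (0.813), so no direction is given for the gene. Ski, a repressor of SMADs, was lower with -0.48 ± 0.14 (adjusted p = 0.0271), and Smurf2, a ubiquitin ligase that removes SMADs and receptors, with -0.55 ± 0.18 (0.0448). Probe by probe, Smurf2 passed on A_52_P472660 (-0.55, adjusted p = 0.0467) but not on A_55_P2124619 (-0.44, 0.055) or A_55_P1976057 (-0.23, 0.339). Neither Ski nor Smurf2 passed under median scaling, where their differences were -0.01 and -0.08.

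Of 9 further targets, 1 was called higher and 3 lower, against 1 and 1 under median scaling. Atoh8, a transcription factor that BMP9 and SMAD1 induce in endothelium, had -1.33, -1.05 and -0.81 in CaCl2+IgG aortas, -0.85, -0.46 and -1.07 in CaCl2 aortas, and 1.23, 0.25 and 0.39 in sham aortas. The sham arrays were the 3 highest, with a difference of -1.42 ± 0.29 (adjusted p = 0.00705), or -0.94 under median scaling, which still passed (0.0362). Msx2, a homeobox factor of bone and vessel wall, was lower with -1.14 ± 0.26 (adjusted p = 0.0125) and Id2, another Id gene, with -0.53 ± 0.15 (0.0255). Neither passed under median scaling, where they differed by -0.67 and -0.06. Runx2, the master regulator of bone formation, cleared the background on 3 of 3 CaCl2 arrays but on 0 of 3 sham arrays. It thus passed the filter on dim probes only through the CaCl2 group, and its call is not read as a result. Its bound was at least 1.23-fold higher in CaCl2 than in sham, and this rests on the background correction. With normexp background correction its difference was -0.10 (adjusted p = 0.567).

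Of 3 tested genes related to Bmp1, Pcolce2, which enhances the cleavage of procollagen, was lower in CaCl2 than in sham with -1.09 ± 0.27 (adjusted p = 0.016). It was -0.62 under median scaling and did not pass there (0.23). The other 2 tested genes of this role did not pass, but under median scaling both were called higher, Tll1, a tolloid-like protease, with 1.83 (adjusted p = 0.0233) and Pcolce, a procollagen cleavage enhancer, with 1.17 (0.046). The 2 kept probes of Tll1 disagree. On the main scale A_55_P2178327 differed by 1.36 (adjusted p = 0.0993) and A_55_P2178324 by -0.56 (0.143), so no direction is given for Tll1. Its representative probe cleared the background on 2 of 3 sham arrays.

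**Figure D5:**
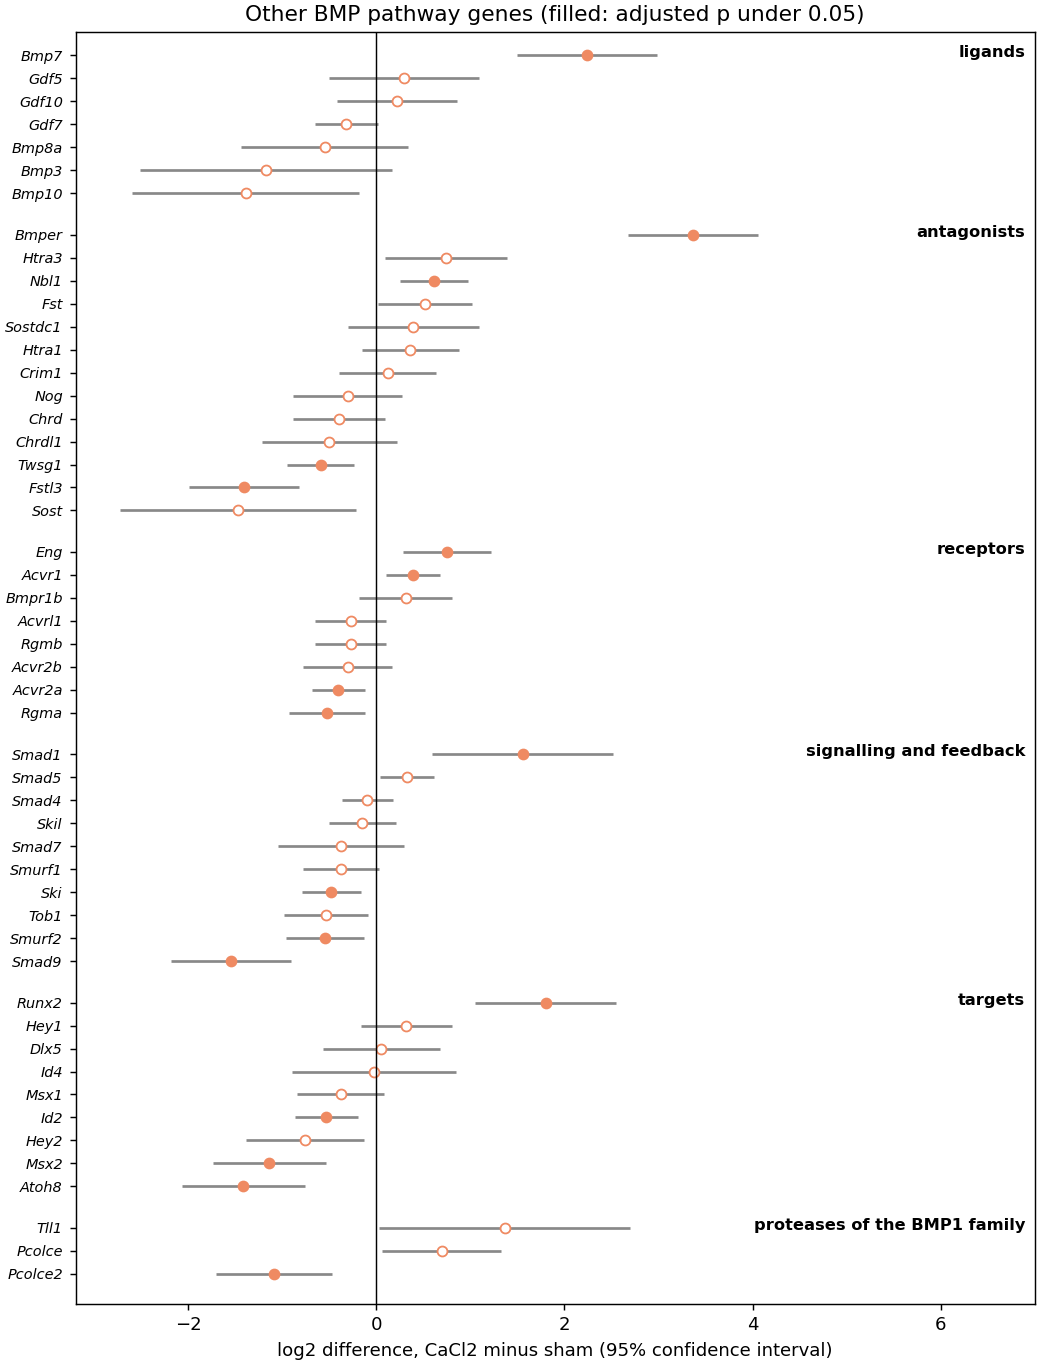
Log2 differences of CaCl2 minus sham (x axis) with 95% confidence intervals for the further pathway genes tested and reported here, grouped by role, filled points passing an adjusted p of 0.05. Bmper lies farthest to the right, and the points for Bmp7 and Runx2 are fitted values of genes below background in every sham array, for which only a bound can be given.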

How the data were processed

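Abdominal aorta RNA was hybridised with Cy3 to 9 Agilent 1-colour arrays. The labels name different purification kits in different places. Per the file headers, the deposited intensity values, on a linear scale, come from Feature Extraction 10.7.1.1 (9.5.1.1 in the submitters' processing notes), with background subtraction and spatial detrending and no scaling between arrays. A table of processed intensity that the authors deposited for the series has no stated scaling and served as an alternative. Columns not mapped to a sample numbered 0.

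Groups came from the sample titles. Control and outlier spots were left out and spots of a probe averaged. The deposited signals were put on the log2 scale, minus the log2 of the 75th percentile of each array. A probe was kept if it cleared background on every array of any group, which left 32168 of 55681, of which 9790 had no symbol. Probes were named by accession (27325) or symbol (3523) in RefSeq genes of GRCm38.p6 or by the files' own name (2133), and 22700 had none. The brightest kept probe stood for a gene. The number of arrays limits the precision.

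All 3 groups entered 1 limma 3.58.1 fit (lmFit and eBayes, R 4.3.3) with 6 residual degrees of freedom and Benjamini-Hochberg adjustment over 16645 genes. The fit was tested on simulated data with 200 changed genes. Where a gene was below background throughout a group, the fold is a bound: the brighter mean against whichever is higher on each array, the dim probe's signal or the lowest signal above background. Figures were drawn with matplotlib 3.10.9.

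All 10 genes were named, and of each role of the other pathway genes up to 4 called in CaCl2 against sham, by smallest p, except that an item withheld from the text is not reported here, though it stays in the counts. The genes, the pathway and marker lists and the tests were chosen with earlier results of these data known. Alternatives were median and quantile scaling, normexp (offset 50), the series values, other filters and probe rules, blocks, array weights, subsets of arrays and an intensity trend. Fits within a slide row were chosen after seeing the data.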

Additional observations from a re-analysis of the deposited data

How the results depend on the processing

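Results were recomputed under 23 other settings and, chosen after seeing the data, within each slide row. No called difference of the 10 genes turned its sign in any of them. Where arrays were only left out, the sign could not turn, since the compared groups did not overlap for any called gene. Under median scaling 2 genes were called in place of 7 in CaCl2 against sham and 3 in place of 8 in CaCl2+IgG against sham, where all genes called numbered 3016 (2161 higher, 855 lower). On the slide with 8 arrays alone, which leaves out sham replicate 3, 3 of the 10 genes were called in CaCl2+IgG against sham. It holds the same arrays as the fit without sham replicate 3 and is no separate result, although both count among the settings. With 1 array left out the number ranged from 5 to 7 in CaCl2 against sham, from 0 to 0 in CaCl2+IgG against CaCl2 and from 3 to 8 in CaCl2+IgG against sham. Within slide row 1 the numbers were 2, 0 and 1, but its lone sham array is on another slide and its spread is not measured, so they bear on no call. Within row 2, which holds no CaCl2 array, 1 was called in CaCl2+IgG against sham. The cause was not tested. All genes called in CaCl2 against sham numbered 6044, but 3403 with the slide row as a block, 3913 without sham replicate 3 and 3990 without CaCl2 replicate 1. In CaCl2+IgG against sham they numbered 4783, but 7892 with array weights and 3015 without CaCl2+IgG replicate 2. In CaCl2+IgG against CaCl2, 2 genes were called without CaCl2+IgG replicate 1. Of the 51 further pathway genes, 19 were called in CaCl2 against sham and 10 to 31 (array weights) under the 23 settings, and 17 in CaCl2+IgG against sham and 9 (median scaling) to 27 (array weights). Under median scaling 3677 genes were higher and 1089 lower in CaCl2 against sham, against 2879 and 3165, and under quantile normalization 3259 and 2802. Arrays share replicate numbers across groups, but the numbers share no stated animal, and the correlations of the deviations of same-numbered arrays lay between -0.198 and 0.225, so they were not taken as pairs. With the replicate block, 7, 0 and 6 of the 10 genes were called in the 3 comparisons.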

Other observations

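Sost, which encodes the antagonist sclerostin, was looked at after its values were seen. Its scaled levels were -2.40, -2.22 and -3.86 in CaCl2+IgG aortas, -1.52, -0.015 and -1.61 in CaCl2 aortas, and -0.11, 0.74 and 0.64 in sham aortas. CaCl2+IgG minus sham was -3.25 ± 0.55 (limma, adjusted p = 0.0038, 3 arrays a group), and CaCl2+IgG minus CaCl2 was -1.78 ± 0.55 with an unadjusted p of 0.0111 and an adjusted p of 0.9999, so that this difference failed the correction although the arrays of the 2 groups did not overlap. CaCl2 minus sham was -1.47 ± 0.55 and did not pass (adjusted p = 0.0656).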
